A study of Neurospora crassa with 6 samples.

Results

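Hyphae held at 5000 lux were compared with hyphae held at 1000 lux, using 4 of the 6 libraries of a light series in the filamentous fungus Neurospora crassa: 2 libraries at each intensity, taken by their light label. The other 2 libraries came from darkness and served here as a reference level and as part of the same fit. Every library, the dark ones included, came from 1 genotype, whose label lists deletions of cry, vvd and wc-1. Hyphae were grown on minimal slants, moved to medium with 2% glucose for 45 min under 1 of these light conditions, and polyadenylated RNA was sequenced. Nothing in the labels shows separate cultures behind the replicates, so a p-value reflects the spread among these libraries alone, which may be technical. No group without the deletions was analysed here, and all statements hold for the deleted strain.

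In Neurospora the White Collar complex, of which WC-1 is the blue-light photoreceptor and a transcription factor, switches on light-induced genes. VIVID, the product of vvd, is a smaller blue-light receptor that damps this response, and cry encodes a cryptochrome. Light in this fungus is known for inducing carotenoid synthesis and conidiation, the formation of asexual spores, and for setting the circadian clock.

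The deposited table gave each gene's level in RPKM, reads scaled to gene length and to library depth, and the steps between its values put 16457495 to 21625770 reads on genes in each library. Between replicates the median absolute difference over genes was 0.11 at 1000 lux, 0.10 at 5000 lux and 0.14 in darkness on the log2 scale. The deleted genes carried values above 0 in every library. For wc-1 the table listed 7.38 and 6.96 RPKM at 1000 lux and 6.95 and 6.31 RPKM at 5000 lux. For vvd it listed 1.95 and 2.15 against 2.47 and 2.70 RPKM, and for cry 2.56 and 1.59 against 2.13 and 2.12 RPKM. None of the 3 passed the test between the intensities. Which stretch of each gene these reads covered cannot be read from RPKM, so the values do not check the labels. In the reference cry also overlaps another gene. The 4 markers of vegetative hyphae (act, tba-2, chs-1 and hex-1) were present in every library, with a summed level of 1981 to 2258 RPKM, and none passed the test. In bulk RNA, fewer cells of a kind and less RNA per cell cannot be told apart.

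Of 7841 genes tested, 130 rose at 5000 lux (1.66%) and 107 fell (1.36%), together 3.02% (limma on log2(RPKM + 1), adjusted p under 0.05 over all genes tested). Among the genes that rose, 7 differed by at least 2-fold and 56 by at least 1.5-fold, with a median log2 difference of 0.57. Among those that fell, 19 differed by at least 2-fold and 61 by at least 1.5-fold, with a median size of 0.63. The median log2 difference over all genes tested was 0.03. At an unadjusted p under 0.05 there were 1222 genes. In 2302 genes (29.4%) both libraries at 5000 lux lay above both at 1000 lux, and in 1508 (19.2%) both lay below. All called genes were among these. Both counts depended on each of the 4 light libraries. Without replicate 1 at 1000 lux 4 genes rose and 27 fell, and without replicate 2 at 1000 lux 19 rose and 29 fell. Without replicate 1 at 5000 lux 1 gene rose and 18 fell, and without replicate 2 at 5000 lux 65 rose and 63 fell. Without replicate 1 in darkness 213 rose and 141 fell, and without replicate 2 in darkness 214 rose and 140 fell. Whichever library was left out, the call was kept for 1 gene that rose, eas, and for 14 that fell, among them asd-1, gh28-1 and lyz.

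**Figure D1:**
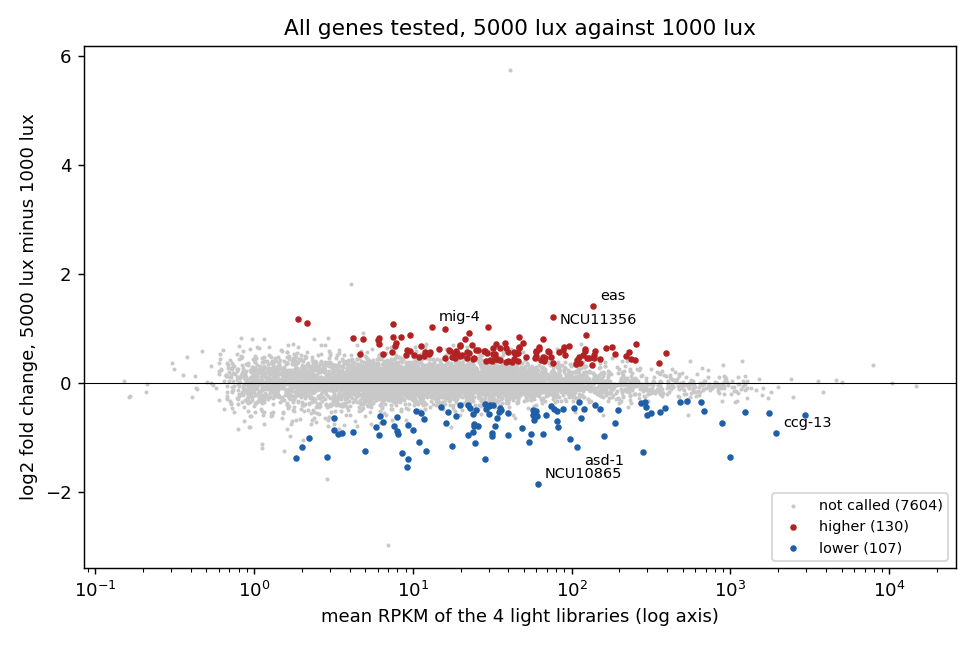
Each point is a gene tested, with its mean RPKM in the 4 light libraries on a log axis and its log2 difference between 5000 and 1000 lux. Red points are the 130 genes that rose and blue points the 107 that fell. Most calls lie within 1 log2 unit of 0, and the largest increase and fall among called genes are those of eas and NCU10865.

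**Figure D2:**
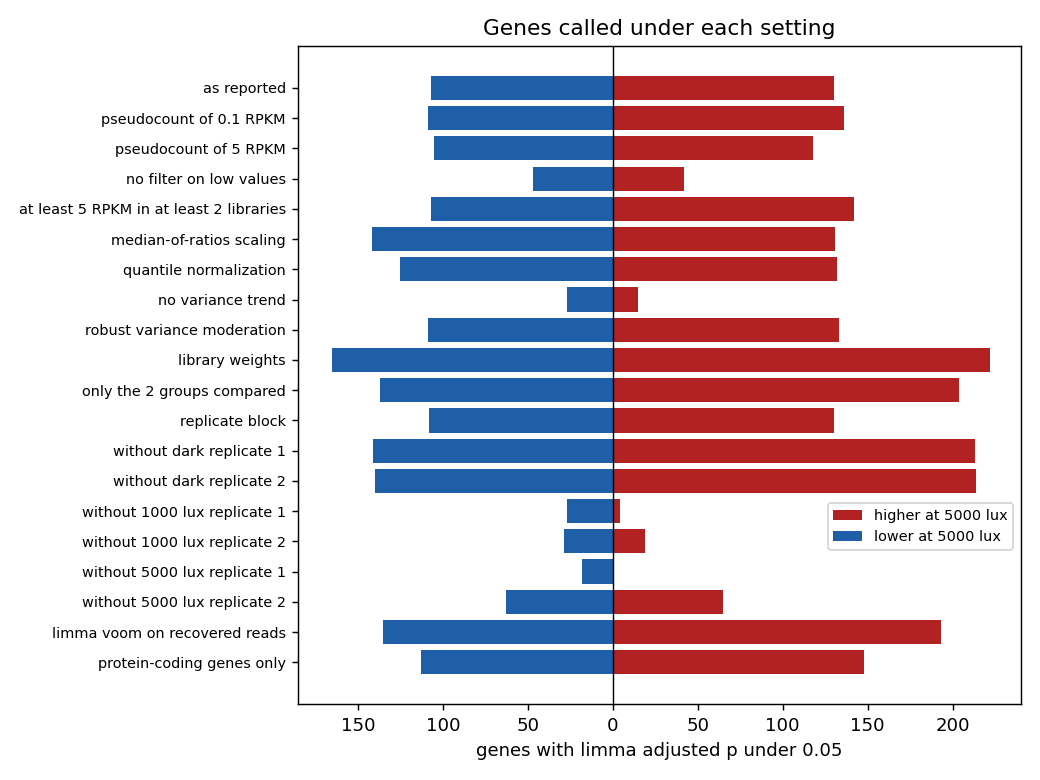
Number of genes called at a limma adjusted p under 0.05 in the reported fit and under each alternative; red bars to the right count genes higher at 5000 lux and blue bars to the left genes lower. Leaving out a light library shortens both bars, to 1 and 18 genes without replicate 1 at 5000 lux, and leaving out a dark library lengthens them, to 214 and 140 without replicate 2 in darkness.

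The genes of amino acid synthesis formed the largest group of named genes that rose. Over 4 lists defined by gene symbol, 13 of 60 genes tested rose (21.7%) and 0 fell, against 1.66% and 1.36% of all genes tested. The lists were formed with earlier results of these data known, so their shares are descriptions and were not tested. The median log2 difference was 0.25 over the lists and 0.03 over all genes. In 41 of the 60 (68.3%) both libraries at 5000 lux lay above both at 1000 lux, against 29.4% of all genes, and in 3 (5.0%) both lay below, against 19.2%. The 13 calls covered the arginine, aromatic, histidine, leucine, lysine and threonine routes, so no single route held them. Being formed by symbol, the lists also held genes of breakdown, such as aga-1 and ota for arginine and the qa genes for quinate. These count among the 60 and in the median, but not among the 13 calls. At an unadjusted p under 0.05, 30 of the 60 were higher and 0 lower, and limma voom on recovered reads called 15 higher and 0 lower. Over all 7841 genes tested, 1222 were under that unadjusted p in either direction, and voom called 193 higher and 135 lower. With no variance trend 0 of the 60 passed, and with no filter on low values 2 did. Fewer genes of these lists passed the test when a light library was left out: 0 without replicate 1 at 1000 lux, 2 without replicate 2 at 1000 lux, 0 without replicate 1 at 5000 lux and 7 without replicate 2 at 5000 lux. The median stayed between 0.20 and 0.28.

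In the arginine and proline list 3 of 17 genes rose. For arg-10, argininosuccinate lyase, the level was 66.8 and 79.99 RPKM at 1000 lux and 129.8 and 108 RPKM at 5000 lux. The dark libraries gave 155 and 147 RPKM. The libraries at 5000 lux were both above those at 1000 lux, and the dark ones were higher still. The log2 difference between the light intensities was 0.69 with a standard error of 0.11 (limma adjusted p = 0.0117). The other genes that rose were arg-4, from 92.1 and 102.7 to 146 and 132 RPKM, and arg-5, from 23.7 and 25.8 to 34.5 and 32.1 RPKM. Their log2 differences were 0.51 and 0.41.

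In the aromatic and histidine list 6 of 21 rose: his-6, aro-8, aro-7, aro-1, trp-2 and trp-3. The first step of the shikimate route is made by DAHP synthase, and aro-7 and aro-8 each encode such an enzyme. For aro-8 the level was 45.2 and 50.6 RPKM at 1000 lux and 83.3 and 68.9 RPKM at 5000 lux, a log2 difference of 0.65 with a standard error of 0.13 (limma adjusted p = 0.0300). For aro-7 it was 95.8 and 96.02 RPKM at 1000 lux and 161 and 129.7 RPKM at 5000 lux, a log2 difference of 0.59. Both genes were separated between the intensities, and in both the libraries at 5000 lux differed more from each other than those at 1000 lux. The gene aro-1, which encodes the arom protein that carries out several later steps, went from 25.6 and 27.6 to 39.3 and 38.3 RPKM. In the branch to tryptophan, trp-2 encodes a component of anthranilate synthase and trp-3 tryptophan synthase. They had log2 differences of 0.43 and 0.41. In his-6 the difference was 0.73, from 27.8 and 28.7 to 54.6 and 41.4 RPKM. The gene overlaps another one in the reference, as trp-3 does, and without a stated strand setting their reads cannot be told apart from those of the partner.

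The remaining amino acid genes that rose were leu-4, lys-5, hom-1 and thr-4. For leu-4, which encodes isopropylmalate synthase, the level was 32.6 and 37.1 RPKM at 1000 lux and 54.1 and 50.4 RPKM at 5000 lux, a log2 difference of 0.57 with a standard error of 0.09 (limma adjusted p = 0.0117). The gene was 1 of 7 of the leucine, isoleucine and valine list. For lys-5, which encodes homocitrate synthase, it was 114 and 113 RPKM at 1000 lux and 176 and 149 RPKM at 5000 lux, a difference of 0.51. For hom-1, which encodes homoserine dehydrogenase, it was 63.9 and 69.7 against 86.9 and 85.4 RPKM, a difference of 0.36. Together with thr-4, at 0.38, these made 3 of 15 in the list of lysine, threonine, serine, glutamine and cpc genes. The transcription factor gene of cross-pathway control, cpc-1, was listed at 351 and 399 RPKM at 1000 lux and 425 and 395 RPKM at 5000 lux. Its libraries overlapped and it did not pass the test (log2 difference 0.13, limma adjusted p = 0.560).

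Of 11 genes of nucleotide synthesis 3 rose and 0 fell, against 1.66% and 1.36% of all genes tested, with a median of 0.14. They were ad-8, which encodes adenylosuccinate synthase of the adenine branch, gua-3 and ad-3A. For ad-8 the level was 68.1 and 70.0 RPKM at 1000 lux and 116 and 104 RPKM at 5000 lux, a log2 difference of 0.66 with a standard error of 0.09 (limma adjusted p = 0.00572). For gua-3 it was 89.3 and 95.5 against 138 and 122 RPKM, and for ad-3A 125 and 129.8 against 178 and 168 RPKM. The intensities did not overlap in any of the 3. Without a light library the list held 0, 1, 0 and 2 calls, leaving out replicates 1 and 2 at 1000 lux and replicates 1 and 2 at 5000 lux in that order. With no variance trend or with no filter on low values 1 of the 11 passed. Both ad-8 and ad-3A overlap another gene in the reference, and their reads cannot be told apart from those of the partner. The partner of ad-8, NCU09788, also rose, with a log2 difference of 0.60.

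**Figure D3:**
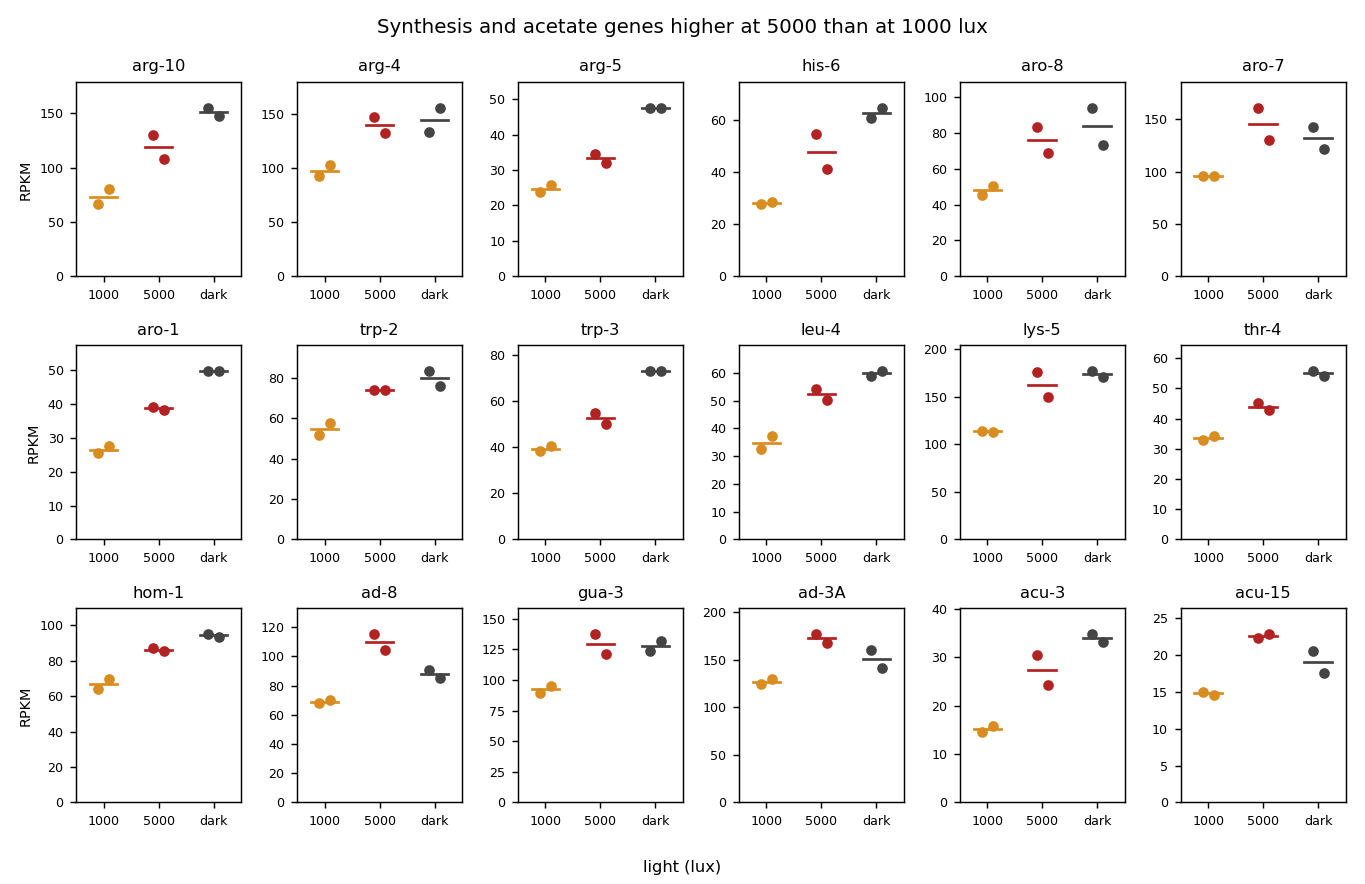
RPKM in each library for the 13 amino acid genes, the 3 nucleotide genes and the 2 acetate genes that rose; points are libraries, bars are means of 2, and each vertical axis starts at 0. In every panel both libraries at 5000 lux lie above both at 1000 lux, for example 108 and 129.8 against 66.8 and 79.99 RPKM in arg-10.

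Genes for growth on acetate had the highest median of all lists with at least 5 genes tested. Fungi growing on acetate use the glyoxylate cycle and make sugars from its products. Of 6 genes tested 2 rose and 0 fell, against 1.66% and 1.36% of all genes tested. The median log2 difference was 0.52. In 5 of 6 both libraries at 5000 lux lay above both at 1000 lux, against 29.4% of all genes. The gene acu-3, which encodes isocitrate lyase of the glyoxylate cycle, was at 14.6 and 15.7 RPKM at 1000 lux and 30.4 and 24.2 RPKM at 5000 lux. Its log2 difference was 0.81 with a standard error of 0.12 (limma adjusted p = 0.00858). The gene acu-15 encodes a transcriptional activator of acetate genes and was at 14.99 and 14.5 against 22.3 and 22.8 RPKM, a difference of 0.58. All 4 libraries of each gene were separated by intensity. Just outside the threshold were acu-6 and acu-9, both at a limma adjusted p of 0.0542. In acu-6 the level was 7.82 and 9.25 RPKM at 1000 lux and 13.96 and 11.3 RPKM at 5000 lux, and in acu-9 16.7 and 20.8 against 29.1 and 25.2 RPKM. The remaining genes, acu-5 and acu-8, had log2 differences of 0.07 and 0.14 and did not pass. Calls in the list numbered 0, 1, 0 and 1 without replicates 1 and 2 at 1000 lux and replicates 1 and 2 at 5000 lux, and 4 when limma voom was run on recovered reads. Over all 7841 genes tested, voom called 193 higher and 135 lower. With no variance trend 0 of the 6 passed, and with no filter on low values 1 did.

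Other metabolic lists held few calls, beside 1.66% of all genes tested that rose and 1.36% that fell. In respiration 1 of 56 genes rose (1.79%), near the share over all genes. It was aod-1, of the alternative oxidase, at 8.69 and 9.23 RPKM at 1000 lux and 13.2 and 12.5 RPKM at 5000 lux. Its dark libraries were higher, at 25.8 and 23.7 RPKM. The median of the respiratory list was -0.03. Of 19 genes for vitamins and cofactors 2 rose: pdx-1, for vitamin B6 synthesis, from 291 and 342 to 504 and 425 RPKM, and inl, which encodes inositol-phosphate synthase, from 151 and 152 to 215 and 228 RPKM. Their log2 differences were 0.55 and 0.54. Of 8 genes for lipids and sterols 2 rose: inl, which this list also holds, and cel-2, which encodes a subunit of fatty acid synthase and went from 94.2 and 92.2 to 115 and 125 RPKM. Outside the lists, lao, which encodes an L-amino acid oxidase, had 53.9 and 59.7 RPKM at 1000 lux and 85.9 and 84.7 RPKM at 5000 lux. The glycogen synthase gene gsy-1 had 97.6 and 98.2 against 130.5 and 123 RPKM. The nucleoside diphosphate kinase gene ndk-1 was lower, at 609 and 570.2 RPKM at 1000 lux and 468 and 473 RPKM at 5000 lux, a log2 difference of -0.32. Of the mig genes mig-10 rose by 0.55 and mig-6 fell by 0.46 on the log2 scale, and gnn rose by 0.34. The genes pdx-1, mig-6 and gnn overlap other genes. The largest increase among genes with a symbol after eas was that of mig-4, at 10.1 and 6.67 against 17.7 and 18.1 RPKM, a log2 difference of 1.03 (limma adjusted p = 0.00928). The call of mig-4 was lost without replicate 1 at 5000 lux. Those of aod-1, pdx-1, inl, cel-2, lao, gsy-1, ndk-1, mig-10 and gnn were lost whichever of the 4 light libraries was left out, and that of mig-6 without each of them except replicate 2 at 5000 lux.

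The largest increase of any called gene was in eas, which encodes the hydrophobin that forms the water-repellent rodlet layer of conidia. Its level was 70.6 and 76.1 RPKM at 1000 lux, 169 and 231 RPKM at 5000 lux, and 212 and 173 RPKM in darkness. Both libraries at 1000 lux were low, and those at 5000 lux spanned the dark values. The log2 difference between the intensities was 1.42 with a standard error of 0.14 (limma adjusted p = 0.00125). Other conidiation genes did not move alike: of 12 tested, 2 rose, eas and rca-1, and 1 fell, con-8. The shares over all genes tested were 1.66% and 1.36%. The gene rca-1, which is named after its counterpart in the conidiation of Aspergillus nidulans, went from 6.81 and 7.75 to 10.1 and 11.4 RPKM. The level of con-8 was 29.5 and 29.6 RPKM at 1000 lux and 11.1 and 19.5 RPKM at 5000 lux, a log2 difference of -0.96 (limma adjusted p = 0.0341). For fl, a transcription factor needed for conidiation, the difference of 0.41 did not pass (limma adjusted p = 0.0775). The rca-1 call was lost whichever of the 4 light libraries was left out, and that of con-8 without each of them except replicate 2 at 5000 lux.

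Marker sums were taken for conidial and sexual tissue. The 7 conidial markers summed to 141 and 148 RPKM at 1000 lux and 232 and 301 RPKM at 5000 lux. Without eas the other 6 summed to 70.1 and 72.3 RPKM at 1000 lux and to 62.4 and 70.4 RPKM at 5000 lux. The genes con-6 and con-13 lay under the minimum for testing. Of the 5 markers of perithecia and sexual tissue 4 were tested, as app lay under the minimum. Against 1.36% of all genes tested, 1 of these 4 fell: asd-1, a gene needed for ascus development. It was at 132 and 168 RPKM at 1000 lux, 66.8 and 65.4 RPKM at 5000 lux, and 62.7 and 63.3 RPKM in darkness. The 1000 lux libraries stood above all others, with a log2 difference of -1.16 and a standard error of 0.11 (limma adjusted p = 0.000838). The sum of the 5 markers, 150 and 188 RPKM against 85.6 and 85.9 RPKM, was mostly asd-1. In the separate, longer list of sexual development, the other 18 of 19 genes tested did not pass. The part of conidial or sexual cells in these results was not tested.

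Carotenoid synthesis, a light response of this fungus, had 1 call among 6 genes, against 3.02% of all genes tested. The gene al-2, which encodes phytoene synthase, was at 24.7 and 25.5 RPKM at 1000 lux and 43.3 and 40.9 RPKM at 5000 lux, with 33.8 and 29.9 RPKM in darkness. The libraries at 1000 lux were the lowest and those at 5000 lux the highest. The log2 difference was 0.72 with a standard error of 0.09 (limma adjusted p = 0.00572), and the call was lost without replicate 1 at 1000 lux or replicate 1 at 5000 lux. Of the 12 photoreceptor and clock genes tested, the deleted ones included, 0 passed by limma and 0 by limma voom on recovered reads. Their median was 0.06. At an unadjusted p under 0.05, 1 was higher and 1 lower, beside 1222 of all 7841 genes tested in either direction. Among 44 transcription factors and regulators 2 rose (4.55%) and 0 fell, against 1.66% and 1.36% of all genes. They were rca-1 and ada-1, the latter at 105 and 104.5 against 142.5 and 147 RPKM. The reads of ada-1 cannot be told apart from those of an overlapping gene, which also rose. Neither rca-1 nor ada-1 passed when any of the 4 light libraries was left out, nor with no variance trend.

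Several genes of the fungal cell wall fell. Of 29 genes for cell wall proteins and wall synthesis 6 fell (20.7%) and 0 rose, against 1.36% and 1.66% of all genes. The median log2 difference was -0.10. This list too was formed with earlier results of these data known, and its shares were not tested. In 13 of 29 (44.8%) both libraries at 5000 lux lay below both at 1000 lux, against 19.2% of all genes. The 6 were 3 genes of non-anchored wall proteins (ncw-3, ncw-4 and ncw-5), 2 of anchored wall proteins (acw-8 and acw-12) and gel-4, of the glucanosyltransferases that remodel wall glucan. For ncw-5 the level was 185 and 239.5 RPKM at 1000 lux, 120.5 and 95.8 RPKM at 5000 lux, and 47.9 and 39.6 RPKM in darkness. The 3 conditions did not overlap, with 1000 lux highest. The log2 difference between the light intensities was -0.96 with a standard error of 0.15 (limma adjusted p = 0.0104), and ncw-5 overlaps another gene in the reference. For ncw-3 the level was 1379 and 1553 against 1056 and 971 RPKM, and for ncw-4 371 and 374 against 252 and 261 RPKM. For gel-4 it was 68.4 and 78.2 against 45.6 and 49.7 RPKM, a log2 difference of -0.61. The anchored proteins acw-8 and acw-12 differed least, by -0.35 and -0.34. In all 6 the libraries at 1000 lux were higher than any at 5000 lux. Calls in the list numbered 2, 0, 1 and 2 without replicates 1 and 2 at 1000 lux and replicates 1 and 2 at 5000 lux, and the median without replicate 2 at 1000 lux was 0.05. With no variance trend 0 passed, and with no filter on low values 2 did.

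The glycoside hydrolases, enzymes that cut polysaccharides, shifted little as a list, with a median of -0.01. Of 58 tested, 3 fell (gh28-1, lyz and gh3-1) and 0 rose, against 1.36% and 1.66% of all genes. The gene gh28-1, of a family known for pectin-cutting enzymes, was at 122 and 142 RPKM at 1000 lux and 63.5 and 64.6 RPKM at 5000 lux. It had 47.2 and 49.4 RPKM in darkness. The log2 difference between the light intensities was -1.03 with a standard error of 0.09 (limma adjusted p = 0.000693). For lyz the level was 40.6 and 43.7 against 24.5 and 23.5 RPKM, a log2 difference of -0.79. For gh3-1 it was 19.2 and 20.6 against 12.3 and 14.6 RPKM. Each of these genes was higher in both libraries at 1000 lux. The genes gh28-1 and lyz passed whichever library was left out, and the call of gh3-1 was lost without either replicate at 1000 lux and without replicate 1 at 5000 lux; gh28-1 overlaps another gene.

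Of 15 genes for ion and metal transport 3 fell and 0 rose, against 1.36% and 1.66% of all genes tested. The 3 were the copper transporter genes tcu-1, tcu-2 and tcu-3. The level of tcu-1 was 47.9 and 35.3 RPKM at 1000 lux, 21.2 and 21.7 RPKM at 5000 lux, and 32.1 and 33.4 RPKM in darkness. The 5000 lux libraries were the lowest and those at 1000 lux the highest. The log2 difference was -0.91 with a standard error of 0.13 (limma adjusted p = 0.00833). For tcu-2, which overlaps other genes, the level was 85.7 and 79.8 against 52.6 and 57.4 RPKM. For tcu-3 it was 50.3 and 44.4 against 34.6 and 29.3 RPKM. The median of the list was -0.001, and 5 of its 15 genes (33.3%) lay higher in both libraries at 5000 lux, against 29.4% of all genes. Calls numbered 1, 2, 0 and 2 without replicates 1 and 2 at 1000 lux and replicates 1 and 2 at 5000 lux. With no variance trend 0 passed, and with no filter on low values 2 did.

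Genes named for clock control or blue-light induction (ccg and bli) had 3 calls among 10, all lower: ccg-13, ccg-14 and ccg-9. Among all genes tested 1.36% fell. The gene ccg-13 was at 2232 and 2787 RPKM at 1000 lux, 1436 and 1235 RPKM at 5000 lux, and 655 and 532 RPKM in darkness. The 3 conditions did not overlap. The log2 difference between the light intensities was -0.90 with a standard error of 0.13 (limma adjusted p = 0.00858). The gene ccg-14, which encodes a small secreted protein of the cerato-platanin family, was at 3252 and 3855 against 2366 and 2337 RPKM. The gene ccg-9, which encodes a trehalose synthase, was much lower in level, at 8.64 and 8.24 against 4.20 and 3.60 RPKM, a log2 difference of -0.95. The list's median was -0.15, but 0.003 after quantile normalization. Calls numbered 2, 0, 1 and 2 without replicates 1 and 2 at 1000 lux and replicates 1 and 2 at 5000 lux. With no variance trend only ccg-9 passed.

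**Figure D4:**
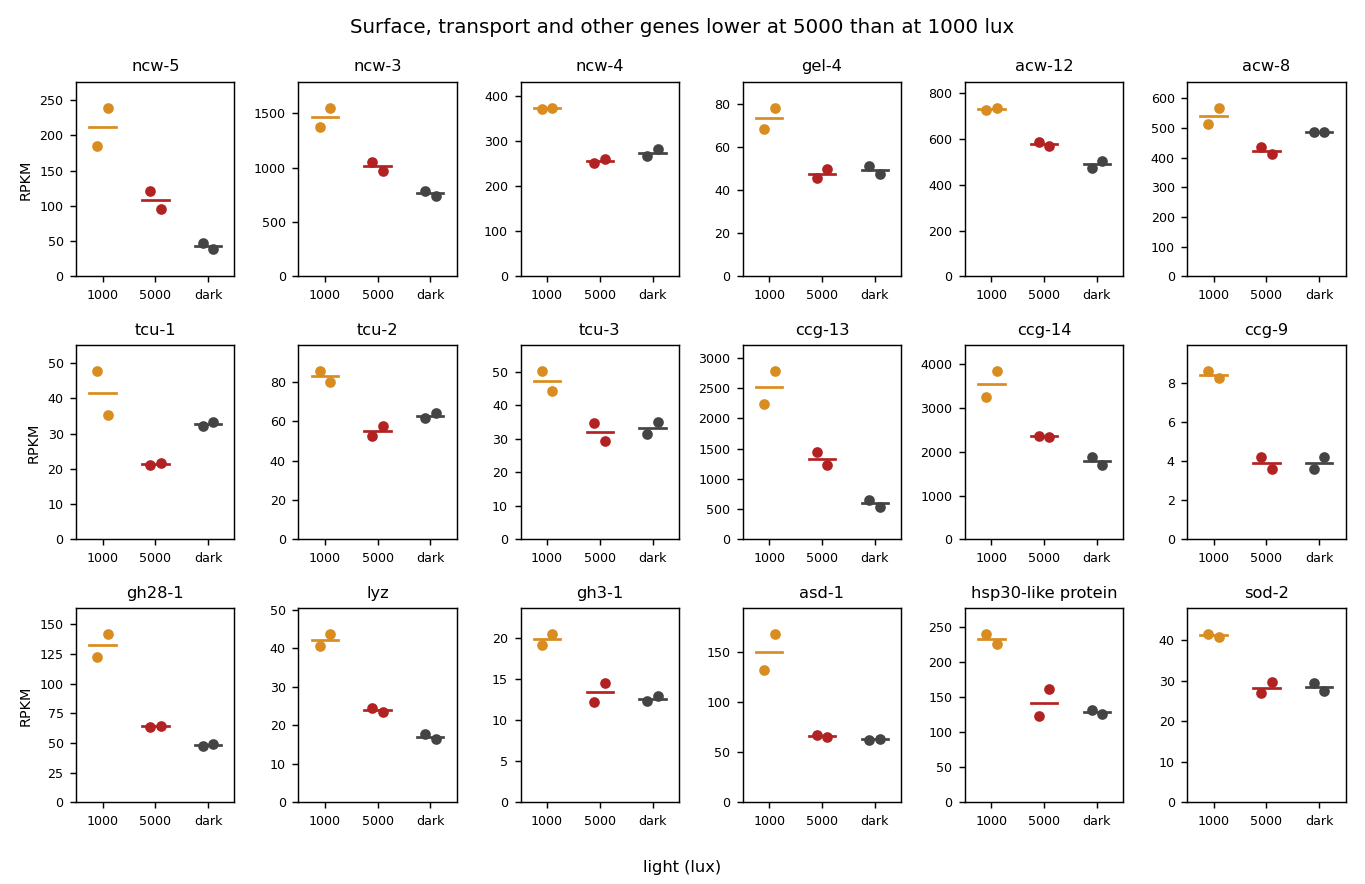
RPKM in each library for 18 of the genes that fell: cell wall, copper transport, ccg, hydrolase, sexual development, heat shock and superoxide dismutase genes; points are libraries, bars are means of 2, and each vertical axis starts at 0. Both libraries at 1000 lux lie above both at 5000 lux in every panel, for example 132 and 168 against 66.8 and 65.4 RPKM in asd-1.

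Stress genes held few calls, beside 1.36% of all genes tested that fell. Among 16 heat shock and chaperone genes 2 fell, hsp30-like_protein and hsp20_family, both known in the table by these names. Small heat shock proteins bind unfolded proteins. The level of hsp30-like_protein was 241 and 226 RPKM at 1000 lux and 123 and 162 RPKM at 5000 lux, a log2 difference of -0.72 with a standard error of 0.12 (limma adjusted p = 0.0117). For hsp20_family it was 10.5 and 11.3 against 4.19 and 6.40 RPKM. The libraries at 5000 lux were apart from each other in both genes but still under those at 1000 lux. The median of the list was 0.01. Of 14 genes for oxidant defence 1 fell, sod-2, which encodes the mitochondrial manganese superoxide dismutase, from 41.6 and 40.9 to 27.0 and 29.6 RPKM. Of 12 genes of nitrogen and phosphate regulation 1 fell, the phosphatase gene pho-3, from 14.4 and 15.1 to 8.96 and 8.85 RPKM. The calls of hsp30-like_protein, hsp20_family and sod-2 were kept without replicate 2 at 5000 lux and lost without each of the other 3 light libraries. That of pho-3 was lost whichever of the 4 was left out.

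Of 41 lists with at least 5 genes tested, 21 held 0 calls by limma; their genes numbered 493, and lists can share members. Among them were 9 cytoplasmic ribosomal proteins, 10 genes of glycolysis and fermentation, 22 of the citrate cycle, 45 of the proteasome and ubiquitin, 95 protein kinases, 67 genes of histones and chromatin and 38 of DNA repair. In these lists 37 genes were higher and 12 lower at an unadjusted p under 0.05, and limma voom on recovered reads called 7 higher and 0 lower. Over all 7841 genes tested, 1222 were under that unadjusted p in either direction, and voom called 193 higher and 135 lower. In 20 of 38 DNA repair genes (52.6%) both libraries at 5000 lux lay above both at 1000 lux, and in 1 both lay below, with a median of 0.11. In 45 of 95 protein kinases (47.4%) the libraries at 5000 lux lay above, and in 12 (12.6%) below, with a median of 0.08. The share over all genes was 29.4% above and 19.2% below. In 5 of 9 ribosomal protein genes and 5 of 10 glycolysis genes the libraries at 5000 lux lay below those at 1000 lux, with medians of -0.08 and -0.04 that turned to 0.01 and 0.02 after quantile normalization. No gene in these lists passed the test, and the lists themselves were not tested.

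**Figure D5:**
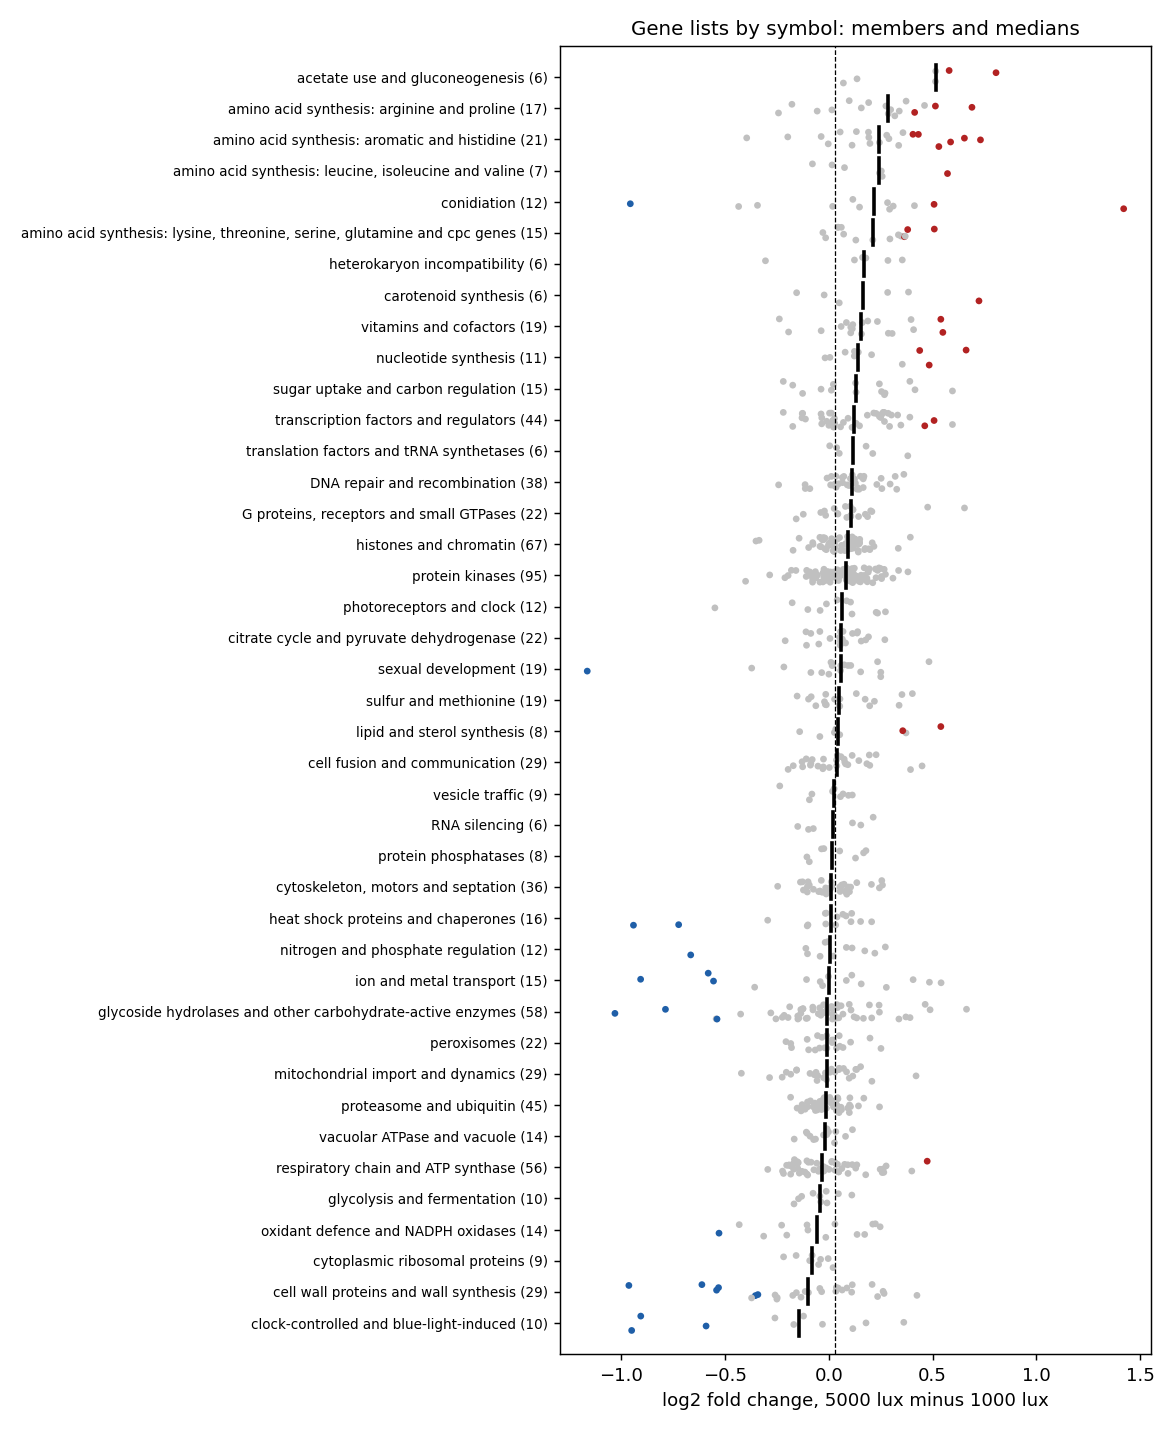
Log2 difference between 5000 and 1000 lux for the members of each gene list with at least 5 genes tested; points are genes (red rose, blue fell, grey did not pass), black bars are list medians, the dashed line is the median of all genes tested, and the number tested is in brackets. The 4 amino acid lists, the conidiation list and the acetate list lie to the right, with medians of 0.21 to 0.52. The cell wall and ccg lists lie to the left.

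Most calls were of well expressed genes. When the genes tested were divided by mean RPKM into 5 classes of equal size, the lowest class held 2 genes that rose and 10 that fell, and the highest class 63 and 46. The median level was 37.6 RPKM for genes that rose, 31.9 RPKM for genes that fell and 13.8 RPKM for all genes tested. The 200 genes with the highest levels, at 321 RPKM or more, held 1 gene that rose and 12 that fell. In 79 of these 200 both libraries at 5000 lux were below both at 1000 lux, and in 25 both were above. The share over all genes was 19.2% below and 29.4% above. These counts used RPKM without further scaling and were not repeated after quantile normalization, so a part of scaling in them was not tested.

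Genes without a symbol made up 77.2% of the calls and 86.2% of the genes tested: 99 of 6759 rose (1.46%) and 84 fell (1.24%). Their functions are not annotated in the sources used here. The largest fall of any called gene was that of NCU10865, at 88.6 and 103 RPKM at 1000 lux, 20.3 and 32.9 RPKM at 5000 lux and 40.4 and 42.9 RPKM in darkness, a log2 difference of -1.85 with a standard error of 0.18 (limma adjusted p = 0.00104). Next came NCU00732, at 14.6 and 13.7 against 4.17 and 4.23 RPKM, and NCU07138, at 13.9 and 14.1 against 4.68 and 4.73 RPKM. In these 3 genes both libraries at 1000 lux stood above the other 4. The same held for NCU00322, at 37.6 and 46.0 against 14.4 and 16.3 RPKM, and all 4 passed whichever library was left out. The largest increase among genes without a symbol was that of NCU11356, at 47.0 and 42.9 RPKM at 1000 lux, 125 and 88.6 RPKM at 5000 lux and 145 and 105 RPKM in darkness, a log2 difference of 1.21 (limma adjusted p = 0.00833). Further increases were 1.18 in NCU10342, 1.09 in NCU16418 and 1.09 in NCU05230, and further falls were -1.37 in NCU09640 and -1.36 in NCU08095. Their levels at 1000 and 5000 lux were low. In NCU10342 they were 0.86 and 0.665 against 3.51 and 2.53 RPKM, and in NCU16418 1.07 and 0.94 against 3.10 and 3.47 RPKM. For NCU05230 they were 3.79 and 5.05 against 11.8 and 9.19 RPKM. For NCU09640 they were 3.05 and 3.08 against 0.28 and 0.92 RPKM, and for NCU08095 5.01 and 4.15 against 1.30 and 1.05 RPKM. Each of these genes, and NCU11356, lost its call without at least 1 of the light libraries, replicate 1 at 5000 lux for all but NCU08095 and replicate 1 at 1000 lux for NCU08095. NCU16418 and NCU08095 overlap other genes.

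Some called genes lay next to each other on the chromosome and moved the same way. Adjacency was counted among the genes tested, so untested genes lying between them were passed over. Among adjacent genes that do not overlap, 3 pairs rose together, holding 6 of 130 genes that rose (4.62%). Another 5 pairs fell together, holding 10 of the 105 placed genes that fell (9.52%). Of all 7796 genes placed and tested, 2.76% lay next to a gene that rose and 2.36% next to one that fell, without overlapping it. The share of 4.62% rests on 6 genes, and neither share was tested. No adjacent pair moved in opposite directions. The pairs that rose included lys-5 with NCU05525, at 0.51 and 0.59, and aro-1 with NCU01633, at 0.53 and 0.57 on the log2 scale. The copper transporter gene tcu-1 fell with its neighbour NCU00829, with log2 differences of -0.91 and -0.95. Whether the members of a pair share regulatory sequence was not tested.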

How the data were processed

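RNA of 6 libraries was analysed, 2 in each group. The authors deposited 1 table of RPKM values per gene and library; CASAVA 1.8 and HISAT are listed in the submitters' processing notes, without their roles. Build, counter and strand setting: not given in the sources used here. Of 10559 genes, 10526 were matched to a RefSeq gene table (NC12), used for symbols, gene types, neighbours and overlaps.

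Genes reaching 1 RPKM in 2 or more of the 6 libraries were fitted on log2(RPKM + 1) with limma 3.58.1 in R 4.3.3, with a variance trend, all 3 groups in 1 fit and Benjamini-Hochberg adjustment over 7841 genes (residual degrees of freedom 3, prior 6.87). Fold changes understate those of low genes because of the pseudocount. The fit was also run on simulated data in which every gene had the same spread, so that run does not check the variance trend. Depth was recovered from RPKM steps: 76.52% to 77.15% of the reads in the denominators lay on genes. A floor of 3 reads corresponds, at 2000 bp of gene length, to 0.0531 to 0.07 RPKM and covers counting error only. The reported fit did not pair libraries by replicate number. Python 3.11.15 (pandas 2.3.3, matplotlib 3.10.9) made the tables and figures.

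Members and lists were chosen with earlier results of these data known, and symbol patterns were corrected after gene names were seen. Named genes are wc-1, vvd and cry, then among called genes the 12 largest changes each way with a symbol and 6 each way without, and up to 4 called genes with the smallest adjusted p per list. Some genes outside this rule (cpc-1, fl, acu-5, acu-6, acu-8, acu-9, trp-2, trp-3, acw-8, acw-12, gsy-1, ndk-1, gnn, mig-6, mig-10, the tissue markers and neighbours) were named to complete a list or the called genes with a symbol. A planned look at protein and promoter features was not run, because their tables were not used here.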

Additional observations from a re-analysis of the deposited data

How the results depend on the processing

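No gene called in the reported fit was called in the opposite direction under any of the alternatives run. For alternatives that keep the order of the libraries this was fixed in advance, because no called gene overlapped between the intensities. Genes that rose and fell at 5000 lux numbered 42 and 47 with no filter on low values, 15 and 27 with no variance trend, 222 and 165 with library weights, and 204 and 137 with only the 2 groups compared. Leaving out 1 library at a time gave 1 to 214 genes that rose and 18 to 141 that fell, with the lone library of a group assumed to vary like the others. The other alternatives (pseudocounts of 0.1 and 5 RPKM, a minimum of 5 RPKM, median-of-ratios scaling, quantile normalization, robust moderation, voom on recovered reads, protein-coding genes) stayed within 1.5 times of the reported 130 and 107, at 118 to 193 and 105 to 142. With a replicate block 130 rose and 108 fell, of which 116 and 95 were among the reported calls. The deviations of same-numbered replicates correlated at 0.05 between the light groups and at 0.03 and -0.09 with darkness. With 1 such deviation per group, these values cannot decide whether same-numbered libraries shared a culture or day. Of 57 named genes called, 54 passed with voom, 29 with no filter on low values and 15 with no variance trend. Of these 57, 8 passed whichever library was left out.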

Other observations

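The widest differences that did not pass the test were in genes whose replicates differed most; they were chosen after their values were seen. NCU15736 was listed at 0.05004 and 0 RPKM at 1000 lux, 145 and 19.6 RPKM at 5000 lux, and 0.152 and 47.3 RPKM in darkness (limma adjusted p = 0.0574). NCU15731 was listed at 1.64 and 26.3 RPKM at 1000 lux, 0.117 and 0.0706 RPKM at 5000 lux, and 42.1 and 75.2 RPKM in darkness (limma adjusted p = 0.0852). NCU15759 was listed at 0.108 and 0.227 RPKM at 1000 lux and 16.0 and 0 RPKM at 5000 lux. In each, libraries of 1 group differed by more than 10 RPKM, and NCU15736 and NCU15731 overlap other genes in the reference.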
